A study of Mus musculus with 9 samples.

Results

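Mast cells that lacked the aryl hydrocarbon receptor (AhR) were set against mast cells that carried the AhR-d form of it, 3 AhR null arrays against 3 AhR-d arrays, which are 6 of the 9 arrays of the series. The arrays were taken by the genotype in their labels, and the question is what a weakly binding receptor still does in cells that a missing receptor does not. All cultures were bone-marrow-derived mast cells of mice labelled C57BL/6J, with the genotypes AhR null, AhR-d and normal control. They were grown for 4 weeks in medium holding 30% WEHI-3 supernatant, enriched by magnetic removal of other cells and rested for 4 h without cytokine before RNA was taken. The labels number 3 culture batches, each with 1 array of every genotype, so AhR null and AhR-d arrays are paired by batch; the labels do not say whether a batch was 1 animal or a pool. Triplets of values below run from batch 1 to batch 3, and the 3 control arrays are given last as a landmark.

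AhR is a transcription factor held in the cytoplasm by chaperones until a small aromatic ligand binds, after which it enters the nucleus, pairs with ARNT and binds DNA at elements with the core GCGTG. Its best known targets are drug-metabolising enzymes such as Cyp1a1, the AhR repressor Ahrr, which acts as feedback, and Tiparp, which limits the receptor's activity. The d allele, carried by strains such as DBA/2, is known for a receptor that binds ligands less tightly. Mast cells are tissue immune cells that store histamine and proteases in granules and release them when IgE receptors are cross-linked.

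Values are normalised log2 levels from Illumina bead arrays, where 1 unit is a 2-fold step. Differences are AhR null minus AhR-d from a paired limma fit with their standard error (SE), and a gene is said to rise or fall when its Benjamini-Hochberg adjusted p from that fit is under 0.05 over the 7235 features tested. AhR null arrays had a mean raw signal of 523 to 636.1 with 9446 to 9733 probes detected, AhR-d arrays 338.4 to 684.2 with 7901 to 9607, and control arrays 324 to 526.7 with 8305 to 8826. AhR-d replicate 3 had the fewest probes detected. The number of arrays limits the precision of every value. AhR-d replicate 1 stood apart from the other AhR-d cultures in transcripts of neutrophils, described below. Xist was detected on the batch 2 array of every genotype and on no other, and the Y-linked Kdm5d and Eif2s3y were detected in batches 1 and 3 of every genotype and in no batch 2 array. The Ahr probe itself was detected on none of the 9 arrays, with detection p-values of 0.115 to 0.833 on the 6 arrays compared here, so the receptor's own transcript does not check the labels. Cyp1a1 was likewise not detected on any array. Cyp1b1 was detected on none of the 6 arrays compared here but on all 3 control arrays.

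In AhR null cultures 286 features were lower than in AhR-d cultures and 246 were higher. These 532 are 7.35% of the features tested, and 3.95% and 3.4% are the shares lower and higher. Every called feature differed with 1 sign in all 3 batches, which a paired fit favours, so this is not separate support. Of the 532, 451 had groups that did not overlap, where 23.6% of all features had such groups. Differences of at least 2-fold comprised 142 falls and 108 rises. Among the falls, 18 features were detected on no AhR null array, and among the rises 13 were detected on no AhR-d array. By the same threshold 1552 features (21.5%) differed between AhR null and control and 114 (1.58%) between AhR-d and control; the count for AhR-d was 28 without the batch block and 47 without batch 1. These comparisons share arrays, so their values are given side by side and not tested against each other.

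The split between rises and falls depended on how arrays were scaled. With the deposited log2 values 358 of 419 calls were rises (85.4%), and with scaling to the median of all probes 316 of 375 (84.3%), against 246 of 532 (46.2%) here. Those scalings moved the median difference of all features to 0.25 and 0.39, against 0.00 here, and differences are to be read relative to that median. Falls numbered 61 and 59 with those scalings. Without the batch block 179 features passed, 75 rises and 104 falls. With batch 1, 2 or 3 left out 652, 427 and 334 passed, with 325, 215 and 145 rises and 327, 212 and 189 falls. List counts given below for these settings are to be read beside these totals.

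**Figure D1:**
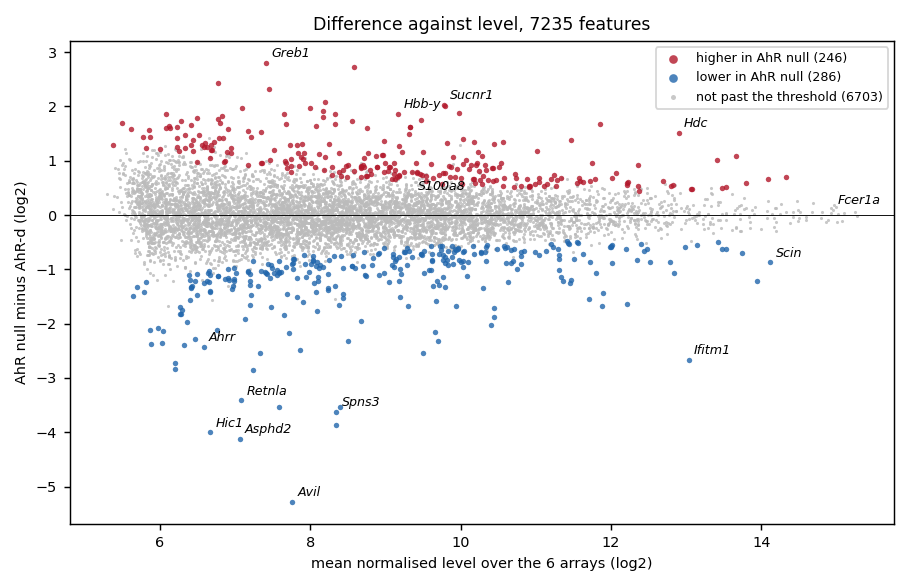
AhR null minus AhR-d difference (log2, vertical) against the mean normalised level over the 6 arrays (log2, horizontal) for each of the 7235 features. The 246 rises and 286 falls are coloured; the deepest fall is Avil at -5.28, and the highest labelled rise is Greb1 at 2.81.

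Among known AhR targets more fell than rose without the receptor. Of 20 listed targets 10 were measured. Of these 5 fell, 1 rose and 4 did not pass the test. The shares lower and higher were 50% and 10%, beside 3.95% and 3.4% of all features. The median difference of the 10 was -0.62, beside 0.00 over all features. Ahrr, the feedback repressor, had 5.54, 5.43 and 5.15 in AhR null, against 7.96, 7.32 and 8.10 in AhR-d and 8.96, 9.06 and 9.20 in control cultures. The 3 groups did not overlap, and AhR-d lay between the others in every batch. No AhR null array detected Ahrr, so its level there is only a bound. In such cases the fold is given as at least the brighter group's mean over the dimmer group's mean of, on each array, the gene's own value or the lowest detected signal, whichever was higher. By that bound Ahrr was at least 4.26-fold lower in AhR null than in AhR-d (fitted difference -2.42, SE 0.29, limma adjusted p = 0.000634). It was also lower in AhR-d than in control, by a log2 difference of -1.28 (adjusted p = 0.0167).

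Aldh3a1, an aldehyde dehydrogenase of the classic AhR battery, had 5.85, 5.90 and 6.80 in AhR null, against 8.76, 8.17 and 7.33 in AhR-d and 8.81, 9.32 and 8.77 in control cultures (difference -1.91, SE 0.38, adjusted p = 0.0132). Nqo1, a quinone reductase driven by both AhR and NRF2, had 5.97, 5.78 and 5.51 in AhR null, against 6.71, 7.40 and 7.10 in AhR-d and 7.28, 7.84 and 7.76 in control cultures (-1.32, SE 0.29, adjusted p = 0.0218). Tiparp had 5.95, 5.94 and 5.64 in AhR null, against 7.08, 7.36 and 6.40 in AhR-d and 6.995, 6.81 and 7.20 in control cultures (-1.10, SE 0.28, adjusted p = 0.0366). In all 3 genes every AhR null array lay below every AhR-d array, and AhR-d and control overlapped for Nqo1 and Tiparp. Tiparp was detected on 2 of 3 AhR null and 2 of 3 AhR-d arrays, and Nqo1 on 2 of 3 AhR null arrays. The separation therefore rests partly on values at or near background. Scin, which encodes the actin-severing protein scinderin and is counted among AhR targets in mast and other cells, had 13.85, 13.76 and 13.43 in AhR null, against 14.72, 14.40 and 14.52 in AhR-d and 14.69, 14.63 and 14.48 in control cultures (-0.87, SE 0.12, adjusted p = 0.00137). Its groups did not overlap between AhR null and AhR-d, while AhR-d and control levels were interleaved. Serpinb2, a serine protease inhibitor, was the target that rose, with 9.62, 9.76 and 8.62 in AhR null, against 8.11, 9.29 and 7.95 in AhR-d cultures (0.88, adjusted p = 0.0319); the groups overlapped across batches. With the deposited values 2 of the 10 targets fell, beside 61 of all 7235 features. Without batch 2, 3 of the 10 fell, beside 212 of all features. Ahrr passed in every alternative that tested it. Aldh3a1 did not pass without batch 1 (limma adjusted p = 0.0604), nor Nqo1 without batch 2 (0.0885) or 3 (0.0656) or with the deposited values (0.0919). Scin did not pass with the deposited values (0.174). Tiparp did not pass in 7 of 18 alternatives, among them no batch block (0.101), without batch 1 (0.0847) or 2 (0.228), the deposited values (0.129) and median scaling (0.195). None of the 10 measured partners and chaperones of AhR passed in limma (0%, beside 7.35% of all features). Of the 10, 2 had an unadjusted p under 0.05, beside 1770 of all 7235 features. With the deposited values 2 of the 10 rose, beside 358 of 7235. Arnt, the partner of AhR in the nucleus, had 5.51, 5.46 and 5.81 in AhR null, against 5.83, 6.01 and 5.08 in AhR-d cultures (-0.05, limma adjusted p = 0.957). It was detected on 1 of 3 AhR null and 2 of 3 AhR-d arrays, so its level was at or near background.

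Promoters are printed to show where the AhR core motif lies in called targets and in genes that moved far. Each runs 5′ to 3′ on the gene's strand from 250 bases before the transcript start to 50 after it, from RefSeq on GRCm38.p6, with GCGTG or its reverse complement CACGC in capitals; positions are counted from the start, with negative numbers upstream. Looked up were the 6 called targets, the 4 deepest falls and the largest rises until 2 had matched, and 11 of these 13 genes matched; Aldh3a1 and Scara5 were not matched. Asphd2, Hic1, Greb1, Mrvi1 and Serpinb2 have 2 starts in the table, of which the first listed was used. Ahrr, Scin, Tiparp, Asphd2, Hic1 and Greb1 held a motif and are shown, with Avil, the gene with the deepest fall, as one of the 5 that held none.
Ahrr promoter, chr13:74292282-74292581, minus strand: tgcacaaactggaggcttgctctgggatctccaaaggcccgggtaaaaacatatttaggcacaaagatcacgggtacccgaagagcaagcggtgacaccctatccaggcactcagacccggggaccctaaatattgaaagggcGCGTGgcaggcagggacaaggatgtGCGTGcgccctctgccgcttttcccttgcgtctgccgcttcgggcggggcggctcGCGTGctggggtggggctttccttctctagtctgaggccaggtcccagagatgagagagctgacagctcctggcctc
Scin promoter, chr12:40134179-40134478, minus strand: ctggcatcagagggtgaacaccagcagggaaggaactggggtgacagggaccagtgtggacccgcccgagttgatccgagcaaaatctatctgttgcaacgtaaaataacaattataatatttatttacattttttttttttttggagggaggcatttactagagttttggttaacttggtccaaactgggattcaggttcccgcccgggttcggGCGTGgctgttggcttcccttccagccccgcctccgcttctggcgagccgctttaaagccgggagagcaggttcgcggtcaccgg
Tiparp promoter, chr3:65528197-65528496, plus strand: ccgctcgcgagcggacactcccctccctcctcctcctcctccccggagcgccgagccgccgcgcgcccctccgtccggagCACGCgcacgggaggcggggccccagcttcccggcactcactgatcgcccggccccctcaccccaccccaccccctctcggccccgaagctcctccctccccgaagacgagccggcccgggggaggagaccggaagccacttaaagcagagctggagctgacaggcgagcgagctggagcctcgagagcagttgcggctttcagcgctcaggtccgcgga
Asphd2 promoter, chr5:112395321-112395620, minus strand: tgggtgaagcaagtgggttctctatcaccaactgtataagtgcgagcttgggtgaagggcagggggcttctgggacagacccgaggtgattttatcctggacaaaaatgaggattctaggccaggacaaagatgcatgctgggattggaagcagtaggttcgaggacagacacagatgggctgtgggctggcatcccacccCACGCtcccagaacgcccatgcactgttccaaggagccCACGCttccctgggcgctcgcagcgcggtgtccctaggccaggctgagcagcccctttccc
Hic1 promoter, chr11:75170206-75170505, minus strand: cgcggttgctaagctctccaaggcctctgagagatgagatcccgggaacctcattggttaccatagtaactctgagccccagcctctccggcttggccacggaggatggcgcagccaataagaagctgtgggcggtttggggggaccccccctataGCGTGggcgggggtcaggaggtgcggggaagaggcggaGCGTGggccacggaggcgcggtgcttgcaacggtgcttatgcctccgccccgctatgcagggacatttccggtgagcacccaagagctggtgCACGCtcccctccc
Greb1 promoter, chr12:16800837-16801136, minus strand: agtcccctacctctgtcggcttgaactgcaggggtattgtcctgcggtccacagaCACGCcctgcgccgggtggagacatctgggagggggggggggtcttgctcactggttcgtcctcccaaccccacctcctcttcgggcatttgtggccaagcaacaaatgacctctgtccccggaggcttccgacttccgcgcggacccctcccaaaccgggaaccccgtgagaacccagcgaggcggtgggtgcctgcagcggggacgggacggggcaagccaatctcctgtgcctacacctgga
Avil promoter, chr10:127000459-127000758, plus strand: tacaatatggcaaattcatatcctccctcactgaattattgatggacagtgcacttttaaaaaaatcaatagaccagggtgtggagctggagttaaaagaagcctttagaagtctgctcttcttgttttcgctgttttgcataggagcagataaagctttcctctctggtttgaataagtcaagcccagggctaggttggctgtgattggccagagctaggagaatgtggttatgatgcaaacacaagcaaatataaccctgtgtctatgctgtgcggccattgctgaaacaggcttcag
The Ahrr promoter held 3 matches, first bases at -107, -82 and -27, all reading GCGTG on the gene's strand. Scin held 1, at -35, and Tiparp held 1, at -170. Asphd2 held 2, at -49 and -11, and Hic1 held 3, at -94, -56 and 37. Greb1, which rose, held 1, at -195. Nqo1, Serpinb2, Mrvi1 and Mrgprb1 held none. A match is a description of these letters, not a binding site or a cause, and a window without a match says nothing of the factor. The motif was common: it was in 53.4% of the 5523 tested genes with a promoter in the table, 49.3% of 215 falling genes and 46.3% of 177 rising genes, and 32.5% of all 27025 promoters in the table.

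The 12 deepest falls were in genes detected on every AhR-d array, 6 of the 12 of them on no AhR null array. For those 6 the filter itself required detection on all 3 AhR-d arrays, so that part of the pattern is not a finding. Avil, which encodes advillin, an actin-binding protein of the gelsolin and villin family, had 5.26, 4.65 and 5.45 in AhR null, against 11.10, 9.16 and 10.93 in AhR-d and 12.27, 11.86 and 12.48 in control cultures. It was detected on no AhR null array and was at least 25.8-fold lower there than in AhR-d (fitted -5.28, SE 0.26, adjusted p = 2.89e-06). AhR-d was itself below control, by a log2 difference of -1.81 (adjusted p = 0.00107). Asphd2, an aspartate beta-hydroxylase domain protein, had 5.15, 5.20 and 4.66 in AhR null, against 9.34, 8.46 and 9.56 in AhR-d and 11.02, 10.26 and 11.08 in control cultures. For Avil and Asphd2 the 3 genotypes formed 3 separate bands with AhR-d in the middle. Asphd2 was at least 10.7-fold lower in AhR null than in AhR-d (-4.12, SE 0.31, adjusted p = 3.09e-05), and AhR-d was below control by -1.67 (adjusted p = 0.00314).

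Hic1, a transcriptional repressor, had 4.88, 4.51 and 4.61 in AhR null, against 8.20, 8.51 and 9.28 in AhR-d and 9.53, 8.57 and 10.32 in control cultures, at least 7.76-fold lower in AhR null than in AhR-d (-4.00, SE 0.30, adjusted p = 3.09e-05). Here AhR-d and control overlapped, and their difference did not pass (-0.81, adjusted p = 0.283). Hgfac, the protease that activates hepatocyte growth factor, had 5.76, 5.85 and 5.85 in AhR null, against 9.84, 9.19 and 9.01 in AhR-d and 11.30, 10.49 and 10.37 in control cultures (-3.53, SE 0.24, adjusted p = 2.23e-05). Its 3 genotypes were separate, with AhR-d below control by -1.38 (adjusted p = 0.00314). Spns3, of the spinster family of lipid transporters, had 6.09, 6.55 and 6.97 in AhR null, against 9.74, 9.87 and 10.87 in AhR-d and 10.51, 10.38 and 10.68 in control cultures (-3.62, SE 0.20, adjusted p = 2.89e-06). Spns3 in AhR-d replicate 3 was above all controls, and AhR-d and control did not differ past the threshold (-0.36, adjusted p = 0.503). Slco2b1, an organic anion transporter, had 6.67, 6.58 and 6.64 in AhR null, against 11.05, 9.70 and 9.73 in AhR-d and 11.48, 11.13 and 9.64 in control cultures (-3.53, SE 0.26, adjusted p = 3.09e-05).

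Mrvi1, a target of cGMP-dependent kinase at the IP3 receptor, varied by batch in every genotype, with 5.71, 4.60 and 8.92 in AhR null, against 10.32, 9.14 and 11.40 in AhR-d and 11.001, 9.34 and 11.59 in control cultures. The paired difference was -3.87 (SE 0.35, adjusted p = 0.000124), and without the batch block it did not pass (adjusted p = 0.0541). Adgrg3, an adhesion G protein-coupled receptor, had 5.53, 5.19 and 6.71 in AhR null, against 8.93, 8.17 and 8.88 in AhR-d and 9.11, 8.44 and 8.76 in control cultures (-2.85, adjusted p = 0.000177), so AhR-d and control were interleaved and AhR null lay apart. Il1r2, the decoy receptor for interleukin-1, had 4.70, 4.76 and 4.89 in AhR null, against 7.56, 7.35 and 7.97 in AhR-d and 9.11, 6.95 and 8.06 in control cultures, at least 3.78-fold lower in AhR null than in AhR-d (-2.84, adjusted p = 0.000243). Cd96, an immunoglobulin-family receptor known from NK and T cells, had 4.95, 4.86 and 4.69 in AhR null, against 8.14, 6.87 and 7.67 in AhR-d and 8.76, 8.78 and 9.78 in control cultures, at least 3.62-fold lower in AhR null than in AhR-d (-2.73, adjusted p = 0.000547). No AhR null array detected Il1r2 or Cd96. Apart from Mrvi1, each of the 12 deepest falls passed in every alternative that tested it.

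**Figure D2:**
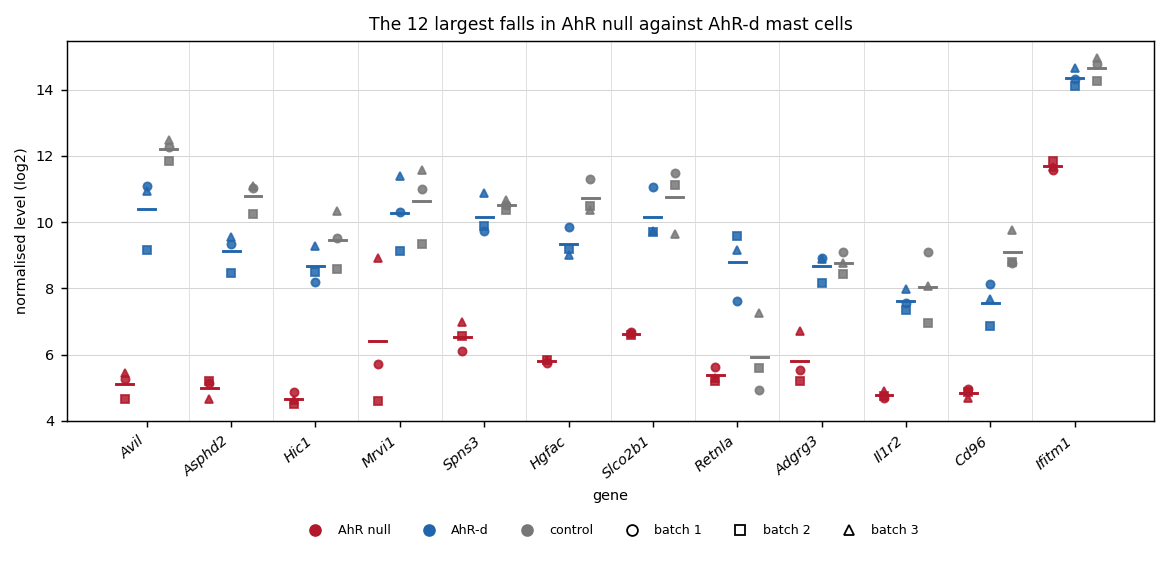
Normalised level (log2, vertical) of the 12 named genes with the deepest falls, by array, with AhR null left of AhR-d and control; marker shapes are batches and short lines are group means. AhR null lies below AhR-d for every gene, which the choice of these genes required within each batch. Retnla is the gene whose control mean lies nearer AhR null than AhR-d.

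In Retnla and Zfp277 the AhR-d cultures lay apart from both other genotypes. Retnla, a secreted resistin-like protein known from alternatively activated macrophages and eosinophils, had 5.62, 5.21 and 5.29 in AhR null, against 7.63, 9.58 and 9.16 in AhR-d and 4.93, 5.59 and 7.24 in control cultures. It was detected on no AhR null array and was at least 8.47-fold lower there than in AhR-d (-3.42, SE 0.38, adjusted p = 0.000448). AhR-d exceeded control by 2.87 (adjusted p = 0.00271). Retnla was detected on 1 of 3 control arrays, so AhR null and control were both at or near background and are not compared. The summed level of the 9 measured monocyte and macrophage markers on AhR-d arrays was 2800, 15700 and 13800 on the linear scale. The AhR-d culture with least Retnla thus also had least of these markers. On AhR null arrays, where Retnla was not detected, their sum was 3750, 4640 and 9080. The 2 measured eosinophil markers summed to 49.8, 1710 and 404 in AhR-d and to 223, 265 and 136 in AhR null. The part of either marker set in the result was not tested. Zfp277, a zinc finger gene that lies within 20 Mb of Ahr on chromosome 12, had 8.58, 8.55 and 8.64 in AhR null, against 6.76, 6.80 and 6.62 in AhR-d and 8.73, 8.46 and 8.74 in control cultures (1.86, SE 0.21, adjusted p = 0.000448). AhR null and control were interleaved, and AhR-d was below control by -1.92 (adjusted p = 8.56e-05). A second Zfp277 probe differed by only 0.43 (adjusted p = 0.493 with every probe tested on its own), so the probes disagree.

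The 12 largest rises had log2 differences of 1.86 to 2.81. Greb1, an oestrogen-regulated gene, had 8.99, 8.74 and 8.74 in AhR null, against 6.24, 6.45 and 5.35 in AhR-d and 4.69, 5.46 and 4.48 in control cultures (2.81, SE 0.26, adjusted p = 0.000128). A second Greb1 probe rose by 1.88. Sucnr1, the receptor for succinate, had 10.81, 10.76 and 10.81 in AhR null, against 8.52, 8.99 and 8.79 in AhR-d and 5.19, 5.93 and 6.26 in control cultures (2.03, SE 0.16, adjusted p = 4.4e-05). Sucnr1 made 3 separate bands, and AhR-d was also above control by 2.97 (adjusted p = 6.45e-06), where 1 of 3 control arrays detected it. Mrgprb1, a Mas-related G protein-coupled receptor of the family that triggers mast cells without IgE, had 8.92, 7.34 and 9.58 in AhR null, against 6.48, 6.13 and 6.28 in AhR-d and 4.90, 4.64 and 4.92 in control cultures (2.32, SE 0.34, adjusted p = 0.00209). Scara5, a scavenger receptor that binds ferritin, had 7.74, 8.89 and 7.34 in AhR null, against 5.45, 6.13 and 5.07 in AhR-d and 4.73, 4.77 and 4.97 in control cultures (2.44, SE 0.26, adjusted p = 0.000291). No control array detected Greb1, Mrgprb1 or Scara5, and they were detected on 2, 2 and 1 of the 3 AhR-d arrays.

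Syn2, a synapsin of synaptic vesicles, had 11.02, 10.88 and 10.83 in AhR null, against 8.61, 9.57 and 8.93 in AhR-d and 7.58, 6.85 and 7.75 in control cultures (1.87, SE 0.20, adjusted p = 0.000291). St3gal5, which makes the ganglioside GM3, had 8.98, 9.44 and 8.98 in AhR null, against 7.45, 7.54 and 6.64 in AhR-d and 5.50, 6.60 and 6.36 in control cultures (1.92, SE 0.21, adjusted p = 0.000441). Pdlim1, an actin-associated adaptor, had 8.50, 7.86 and 7.86 in AhR null, against 6.26, 6.17 and 5.88 in AhR-d and 5.11, 5.55 and 5.15 in control cultures (1.97, SE 0.24, adjusted p = 0.000749). In these 3 genes AhR null did not overlap AhR-d, and AhR-d lay above every control. Pdlim1 was detected on 2 of 3 AhR-d arrays and on no control array. In limma AhR-d against control passed for Syn2 (1.64, adjusted p = 0.00338). It did not pass for St3gal5 (1.06, adjusted p = 0.0826) or Pdlim1 (0.83, adjusted p = 0.23). Sel1l3 (2.08, adjusted p = 0.00022) and the nucleosome-binding protein gene Hmgn1 (2.01, adjusted p = 0.000441) rose too, and near-identical copies of Hmgn1 in the genome make its probe less certain. Gadd45a, a stress-induced growth arrest gene, had 8.70, 9.31 and 8.94 in AhR null, against 7.97, 7.31 and 5.74 in AhR-d and 6.31, 6.71 and 7.43 in control cultures (1.98, SE 0.36, adjusted p = 0.00811). AhR-d replicate 3 was the lowest Gadd45a value and lay under the lowest detected signal of its array (6.405), so it is at or near background. Gadd45a and Sel1l3 were each detected on 2 of 3 AhR-d arrays. The Gadd45a call did not pass without the batch block (adjusted p = 0.0537), and a second Gadd45a probe differed by 0.80.

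**Figure D3:**
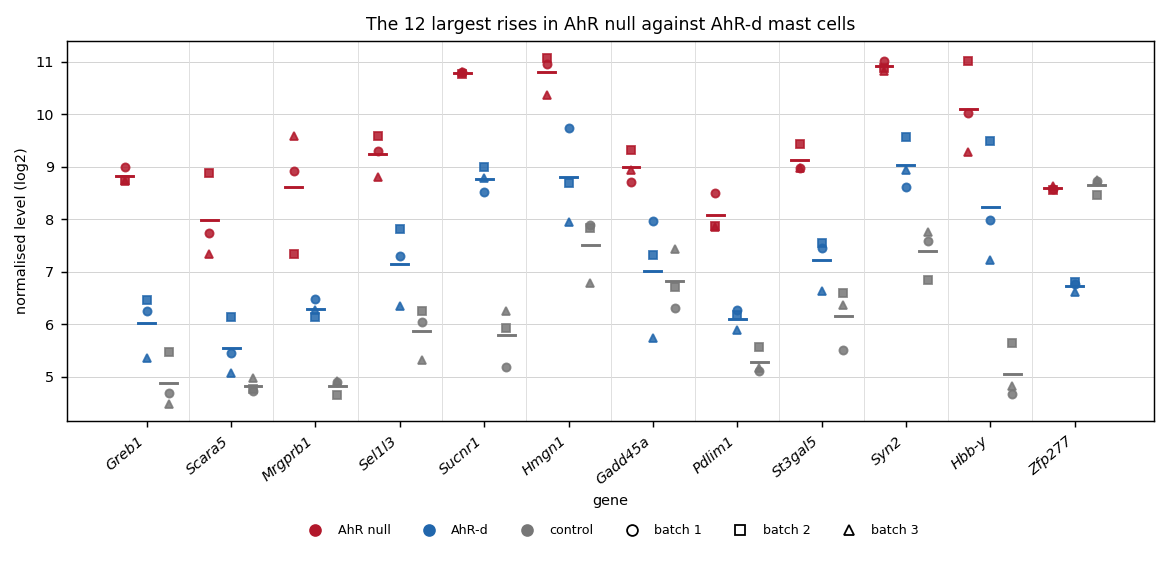
Normalised level (log2, vertical) of the 12 named genes with the largest rises, by array, drawn as for the falls. AhR null lies above AhR-d within each batch, which the choice of these genes required. For Zfp277 the control cultures sit with AhR null at 8.46 to 8.74.

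Mast cell identity genes moved in both directions. There were 3 rises and 2 falls among the 23 measured (13% and 8.7%, beside 3.4% and 3.95% of all features). The median was -0.04, and 11 had an unadjusted p under 0.05, beside 1770 of all 7235 features. The summed level of these genes was 249600 to 251800 in AhR null, 237500 to 251000 in AhR-d and 228300 to 252300 in control cultures. Fcer1a, the IgE-binding chain of the receptor, had 15.06, 14.76 and 15.16 in AhR null, against 14.94, 14.99 and 14.76 in AhR-d cultures (0.10, adjusted p = 0.689). Of 23 measured genes of IgE receptor signalling 0 passed the limma threshold (0%, beside 7.35% of all features). An unadjusted p under 0.05 was seen in 6 of these 23, beside 1770 of all 7235 features. Enzymes of histamine and of serotonin synthesis moved in opposite directions. Hdc, which makes histamine, had 13.58, 13.95 and 13.44 in AhR null, against 11.66, 12.74 and 12.01 in AhR-d and 10.71, 11.24 and 10.55 in control cultures (1.52, SE 0.14, adjusted p = 0.000169); AhR-d was above control by 1.30 (adjusted p = 0.00016). Slc18a2, the transporter that loads amines into granules, rose by 0.50 (adjusted p = 0.0203). Tph1, which starts serotonin synthesis, had 12.36, 11.98 and 12.71 in AhR null, against 13.62, 12.97 and 13.06 in AhR-d and 13.79, 13.10 and 13.06 in control cultures (-0.86, SE 0.16, adjusted p = 0.00961). Ddc, the next enzyme of that pathway, had 7.002, 6.98 and 8.30 in AhR null, against 9.35, 8.18 and 8.51 in AhR-d and 8.58, 7.61 and 7.25 in control cultures (-1.25, adjusted p = 0.0416). AhR null and AhR-d overlapped for Ddc. Against control neither passed in limma, with -0.39 for AhR null (adjusted p = 0.48) and 0.87 for AhR-d (adjusted p = 0.366). Without the batch block adjusted p was 0.0653 for Tph1, 0.128 for Ddc and 0.0625 for Slc18a2, while Hdc passed in every alternative.

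Among 12 measured granule proteases 1 rose and 11 did not pass (8.33% called, beside 7.35% of all features). That gene, Prss34, a tryptase-like protease also known as a basophil marker, had 10.93, 11.54 and 10.84 in AhR null, against 8.66, 10.62 and 10.11 in AhR-d and 7.25, 9.50 and 7.72 in control cultures (1.30, SE 0.25, adjusted p = 0.0101). Its 3 groups stood in the same order in each batch, and without the batch block it did not pass (adjusted p = 0.128). Cpa3 (-0.08) and Cma1 (-0.11), chosen after their values were seen, are the mast cell carboxypeptidase and chymase and did not pass. Of 9 measured eicosanoid genes only Cbr1, a carbonyl reductase, passed, with a rise of 1.34 (adjusted p = 0.0462, and 0.141 without the batch block). That is 11.1% of the list, beside 7.35% of all features.

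Cytokine genes that passed were lower at rest without the receptor. Of 20 measured cytokine and chemokine genes 4 fell (20%, beside 3.95% of all features) and the other 16 did not pass. Without batch 2, 3 fell and 3 rose, beside 212 and 215 of all 7235 features. Osm, an IL-6 family cytokine, had 12.45, 11.88 and 12.57 in AhR null, against 13.12, 13.40 and 13.57 in AhR-d and 13.52, 13.31 and 14.01 in control cultures (-1.06, SE 0.15, adjusted p = 0.00208). Ccl4, a chemokine for T cells and monocytes, had 10.50, 10.64 and 11.13 in AhR null, against 12.12, 12.12 and 11.67 in AhR-d and 13.19, 12.22 and 13.46 in control cultures (-1.21, SE 0.19, adjusted p = 0.00345). AhR null and AhR-d did not overlap for either gene, and AhR-d and control did for Osm. The growth factor genes Pdgfa (-1.65, adjusted p = 0.00403) and Hbegf (-1.10, adjusted p = 0.0352) also fell. With the deposited values adjusted p was 0.115 for Osm, 0.133 for Ccl4 and 0.26 for Hbegf. Of 15 measured cytokine receptors 3 fell and 1 rose (20% and 6.67%, beside 3.95% and 3.4% of all features). Besides Il1r2, Csf2rb2, a beta chain of the mouse IL-3 receptor, had 13.61, 13.11 and 13.46 in AhR null, against 14.23, 13.92 and 14.14 in AhR-d cultures (-0.71, SE 0.11, adjusted p = 0.00315), and Il10ra fell by 0.84 (adjusted p = 0.0319). Ifngr1, the ligand-binding chain for interferon gamma, rose by 1.00 (adjusted p = 0.0309). Csf2rb2 did not pass with the deposited values (adjusted p = 0.385), and Il10ra (0.148) and Ifngr1 (0.123) did not without the batch block.

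Of 6 measured genes of the superoxide-producing NADPH oxidase 2 fell (33.3%, beside 3.95% of all features), both encoding cytosolic subunits, with a list median of 0.11. Ncf4, which encodes p40phox, had 8.90, 8.55 and 8.27 in AhR null, against 10.76, 10.92 and 10.53 in AhR-d and 11.40, 11.71 and 10.92 in control cultures (-2.16, SE 0.16, adjusted p = 3.09e-05). Ncf1, which encodes p47phox, had 6.04, 7.42 and 6.49 in AhR null, against 7.85, 8.09 and 7.15 in AhR-d cultures (-1.05, SE 0.28, adjusted p = 0.0464). Ncf4 was separate between the genotypes and passed in every alternative, whereas Ncf1 overlapped and did not pass without the batch block (adjusted p = 0.172). The other 4, Rac2 (0.67), Cyba (0.30), Rac1 (0.15) and Noxo1 (0.07), did not pass. Among 26 measured actin regulators 22 did not pass and 4 fell (15.4%, beside 3.95% of all features). The 4 falls were Avil, Scin, the membrane myosin gene Myo1g (-0.87, adjusted p = 0.00975) and the non-muscle myosin gene Myh9 (-0.75, adjusted p = 0.0231). The last 2 did not pass with the deposited values, at adjusted p of 0.454 and 0.578.

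Surface adhesion genes moved in both directions. Of 21 measured integrins and tetraspanins 3 fell and 3 rose (14.3% each, beside 3.95% and 3.4% of all features). Itgb7, the beta7 integrin that mast cell progenitors use to enter the gut, had 10.21, 9.27 and 10.55 in AhR null, against 11.47, 10.79 and 11.47 in AhR-d and 12.17, 11.78 and 12.23 in control cultures (-1.23, SE 0.15, adjusted p = 0.000758). Each genotype was separate, with AhR-d below control by -0.82 (adjusted p = 0.0143); AhR null against AhR-d did not pass without the batch block (adjusted p = 0.0631). Tspan8, a tetraspanin, was detected on no AhR null array and had 5.10, 4.87 and 4.85 there, against 6.60, 7.34 and 7.10 in AhR-d cultures, at least 2.47-fold lower (-2.07, adjusted p = 0.00306). The tetraspanins Cd9 and Cd81 moved apart: Cd9 fell by 1.58 (adjusted p = 0.00808) and Cd81 rose by 1.01 (adjusted p = 0.00324). Cd81 had 13.86, 13.85 and 14.02 in AhR null, against 13.18, 13.05 and 12.49 in AhR-d and 11.56, 11.29 and 12.25 in control cultures, a graded order in every batch. Cd9 did not pass without the batch block (adjusted p = 0.122). Of 28 calcium entry and exocytosis genes 2 fell and 1 rose (7.14% and 3.57%, beside 3.95% and 3.4% of all features). Kcnn4, the calcium-activated potassium channel that sustains calcium entry in mast cells, had 6.93, 6.37 and 6.57 in AhR null, against 8.52, 8.31 and 8.15 in AhR-d and 8.50, 8.81 and 8.77 in control cultures (-1.70, SE 0.22, adjusted p = 0.00104). Kcnn4 in AhR-d touched the control range while AhR null lay well apart. The fusion protein gene Snap23 rose by 0.60 and the granule Rab gene Rab3d fell by 0.74, and neither passed without the batch block (adjusted p = 0.0653 and 0.216).

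Interferon-stimulated genes did not move as a block: of 18 measured, 4 fell, 3 rose and 11 did not pass, with a median of -0.11. The shares lower and higher were 22.2% and 16.7%, beside 3.95% and 3.4% of all features. The falls were 3 Ifitm genes, which encode membrane proteins that restrict viral entry, and Usp18, a feedback inhibitor of interferon signalling. Ifitm1 had 11.59, 11.83 and 11.68 in AhR null, against 14.33, 14.10 and 14.66 in AhR-d and 14.76, 14.26 and 14.96 in control cultures (-2.67, SE 0.14, adjusted p = 2.89e-06). Ifitm2 (-1.21, adjusted p = 0.000518) and Ifitm3 (-1.32, adjusted p = 0.00132) fell too, though their sequences are alike enough that probes may share signal. Usp18 had 7.87, 7.69 and 7.44 in AhR null, against 8.93, 9.18 and 9.48 in AhR-d and 9.31, 9.76 and 9.87 in control cultures (-1.53, SE 0.22, adjusted p = 0.0018). Usp18 and Ifitm3 did not pass with the deposited values (adjusted p = 0.0763 and 0.131), and Ifitm1 and Ifitm2 passed in every alternative. The rises were lost without batch 2 or the batch block, and 1 passed without batch 3. These, Samhd1 (0.83), Oasl2 (1.15) and Gbp3 (0.93), were chosen after their values were seen. Antigen presentation showed 2 rises among 21 measured genes (9.52%, beside 3.4% of all features). They were the immunoproteasome subunit Psmb9 (0.88, adjusted p = 0.00638) and B2m, the light chain of MHC class I (0.67, adjusted p = 0.0069).

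Among immediate early and feedback genes of stimulated cells most calls were falls. Of 35 measured 8 fell and 2 rose (22.9% and 5.71%, beside 3.95% and 3.4% of all features), and the median was -0.16. Junb, an AP-1 subunit, had 11.93, 12.13 and 12.21 in AhR null, against 12.69, 13.09 and 13.10 in AhR-d and 12.98, 13.40 and 13.24 in control cultures (-0.87, SE 0.12, adjusted p = 0.00131). Gadd45g had 9.25, 9.84 and 9.47 in AhR null, against 9.90, 11.10 and 10.94 in AhR-d cultures (-1.13, SE 0.18, adjusted p = 0.00345). Nfkbia, which encodes the NF-kappaB inhibitor IkB-alpha, went the other way, with 7.70, 8.27 and 8.38 in AhR null, against 6.44, 6.39 and 6.91 in AhR-d and 6.33, 5.50 and 6.29 in control cultures (1.53, SE 0.23, adjusted p = 0.00287). AhR null and AhR-d did not overlap for any of these 3 genes. Of the 35 genes 3 rose and 0 fell with the deposited values (median scaling 4 and 0), 1 rose and 2 fell without the batch block, and 2 rose and 2 fell without batch 3. Over all 7235 features those settings gave, in that order, 358, 316, 75 and 145 rises and 61, 59, 104 and 189 falls.

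All calls among cell cycle and replication genes were falls in AhR null. Of 46 measured cell cycle and replication genes 10 fell (21.7%, beside 3.95% of all features) and 36 did not pass. A negative difference was seen in 40 of the 46, and the median was -0.55, with -0.27, -0.28 and -0.80 in the 3 batches. Tpx2, a spindle assembly factor, had 7.38, 7.44 and 7.80 in AhR null, against 8.53, 8.78 and 9.46 in AhR-d and 8.30, 7.91 and 9.25 in control cultures (-1.38, SE 0.20, adjusted p = 0.00183). Mcm6, a subunit of the replicative helicase, had 10.94, 11.01 and 10.86 in AhR null, against 11.77, 11.57 and 11.69 in AhR-d and 11.95, 11.62 and 11.55 in control cultures (-0.74, SE 0.13, adjusted p = 0.00698). Stmn1, a microtubule regulator (-0.69), and Uhrf1, which maintains DNA methylation (-0.88), fell as well. For Tpx2 and Mcm6 AhR null lay below both other genotypes. The 10 falls include the cell cycle inhibitor gene Cdkn1a, with 12.59, 11.84 and 11.89 in AhR null, against 12.84, 12.84 and 12.62 in AhR-d cultures (-0.66, adjusted p = 0.0218). Other Cdkn1a probes differed by -0.67 and -0.14. With the deposited values and with median scaling limma passed 0 of the 46. With the deposited values 3 had an unadjusted p under 0.05, beside 1619 of all 7235 features. The list's median relative to that of all features was -0.30 and -0.51 with these scalings, in that order. Without batch 3 it was -0.28 with 5 falls, and without the batch block 3 fell. Other Mcm6 probes differed by -0.65, -0.45 and 0.18.

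Most calls among lysosomal and antioxidant genes were rises. Of 43 lysosomal enzyme and proton pump genes 6 rose (14%, beside 3.4% of all features) and 37 did not pass, with a median of 0.10. Tpp1, a lysosomal peptidase, had 9.59, 9.83 and 9.98 in AhR null, against 8.54, 8.91 and 8.49 in AhR-d and 8.32, 8.34 and 8.07 in control cultures (1.15, SE 0.17, adjusted p = 0.00282). The proton pump subunits Atp6v1a (0.86), Atp6v1b2 (0.68) and Atp6v1e1 (0.53) rose together. Of the 43, 2 rose without the batch block, 3 without batch 2 and 3 without batch 3. In those settings 75, 215 and 145 of all 7235 features rose. Of 32 antioxidant genes 5 rose and 2 fell (15.6% and 6.25%, beside 3.4% and 3.95% of all features). Gpx1, a glutathione peroxidase, had 14.63, 14.86 and 14.52 in AhR null, against 14.29, 13.98 and 13.64 in AhR-d and 13.85, 13.79 and 13.10 in control cultures (0.70, SE 0.13, adjusted p = 0.00936), and Sod1, the cytosolic superoxide dismutase, had 11.58, 11.69 and 11.55 in AhR null, against 11.19, 10.82 and 10.60 in AhR-d cultures (0.74, SE 0.15, adjusted p = 0.0131). Neither gene overlapped between AhR null and AhR-d. Mitochondrial Prdx3 (0.80) and secreted Gpx3 (1.20) rose, and Nqo1 and Txnrd1 fell. Without the batch block 2 of the 32 rose and 1 fell, beside 75 and 104 of all 7235 features. Without batch 3, 3 rose and 0 fell, beside 145 and 189. Hmox1, haem oxygenase, had 5.91, 6.23 and 5.58 in AhR null, against 5.85, 5.87 and 5.58 in AhR-d cultures and did not pass (0.14, adjusted p = 0.821). It was at or near background, detected on 2 of 3 AhR null and 1 of 3 AhR-d arrays.

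Calls made up 1.49% of respiratory chain genes and 2.63% of proteasome genes, beside 7.35% of all features. They made up 6.9% of glycolysis and hypoxia genes and 7.14% of sterol and fatty acid synthesis genes. The share was 10.7% for unfolded protein and ATF4 genes and also for apoptosis genes. Of 67 respiratory chain genes only Cox7b passed, with a fall of 0.61 (adjusted p = 0.0332), and of 38 proteasome genes only Psmb9 passed. Glycolysis and hypoxia genes gave 1 rise, the glucose transporter gene Slc2a1 (0.56), and 1 fall, the stress-induced mTOR inhibitor Ddit4 (-0.77), among 29. Among 28 sterol and fatty acid synthesis genes Dhcr7 rose (0.87) and Acss2 fell (-0.66). Of 28 unfolded protein and ATF4 genes 3 fell, Asns, asparagine synthetase, by 1.13, Ddit4, and Manf by 0.85. Apoptosis genes gave 2 rises, Sesn1 (0.93) and Casp6 (0.96), and 1 fall, Cdkn1a, among 28. Of the calls in these lists only Psmb9 and Asns passed without the batch block.

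Genes of other settings included receptors known from neurons. Of 14 neuronal-type genes 3 rose and 2 fell (21.4% and 14.3%, beside 3.4% and 3.95% of all features). Without the batch block 1 rose and 0 fell, beside 75 and 104 of all 7235 features. Ngfr, the p75 neurotrophin receptor, had 10.86, 10.92 and 10.66 in AhR null, against 9.36, 9.97 and 9.62 in AhR-d and 7.88, 8.57 and 8.53 in control cultures (1.16, SE 0.16, adjusted p = 0.00134). Sort1, sortilin, which pairs with that receptor, had 9.83, 10.25 and 9.37 in AhR null, against 7.47, 9.38 and 8.76 in AhR-d and 4.67, 5.89 and 5.46 in control cultures (1.28, SE 0.28, adjusted p = 0.0213). No control array detected Sort1, and by the bound above it was at least 5.47-fold higher in AhR-d than in control (adjusted p = 2.3e-05). Ngfr was higher in AhR-d than in control by 1.32 (adjusted p = 0.00118). Sort1 did not pass against AhR-d without the batch block (adjusted p = 0.139). Hsd11b1, which reactivates glucocorticoids, had 9.51, 9.89 and 10.85 in AhR null, against 9.05, 8.54 and 9.20 in AhR-d and 6.21, 5.88 and 6.52 in control cultures (1.15, SE 0.22, adjusted p = 0.00982); AhR-d exceeded control by 2.73 (adjusted p = 1.32e-05). Hsd11b1 did not pass against AhR-d without the batch block (adjusted p = 0.0892). Besides Greb1 it was the other rise among 19 steroid genes (10.5%, beside 3.4% of all features). Lineage factors gave 1 rise, the GATA cofactor gene Zfpm1 (0.83), and 2 falls, Runx1 (-0.97) and Cd34 (-0.65), among 21 (4.76% and 9.52%, beside 3.4% and 3.95% of all features). Cd34 did not pass without the batch block (adjusted p = 0.209), without batch 1 (0.0801) or 3 (0.219) or with the deposited values (0.744), and Runx1 did not with the deposited values (0.396).

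Of genes within 20 Mb of Ahr on chromosome 12, 55 were measured, and 6 rose and 3 fell (16.4%, beside 7.35% of all features). Id2, an inhibitor of helix-loop-helix factors, had 11.24, 10.84 and 11.46 in AhR null, against 12.79, 12.72 and 12.32 in AhR-d and 12.90, 12.75 and 12.54 in control cultures (-1.43, SE 0.18, adjusted p = 0.000752). Its second probe fell by 1.33. Trib2, a pseudokinase gene, had 10.48, 10.63 and 10.42 in AhR null, against 9.68, 9.32 and 9.68 in AhR-d and 9.46, 8.63 and 9.38 in control cultures (0.95, SE 0.16, adjusted p = 0.00589). Greb1, Nfkbia, Zfp277 and Scin lie in the same stretch, so the called genes there moved in both directions. Whether DNA beside Ahr differs between these mice was not tested.

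**Figure D4:**
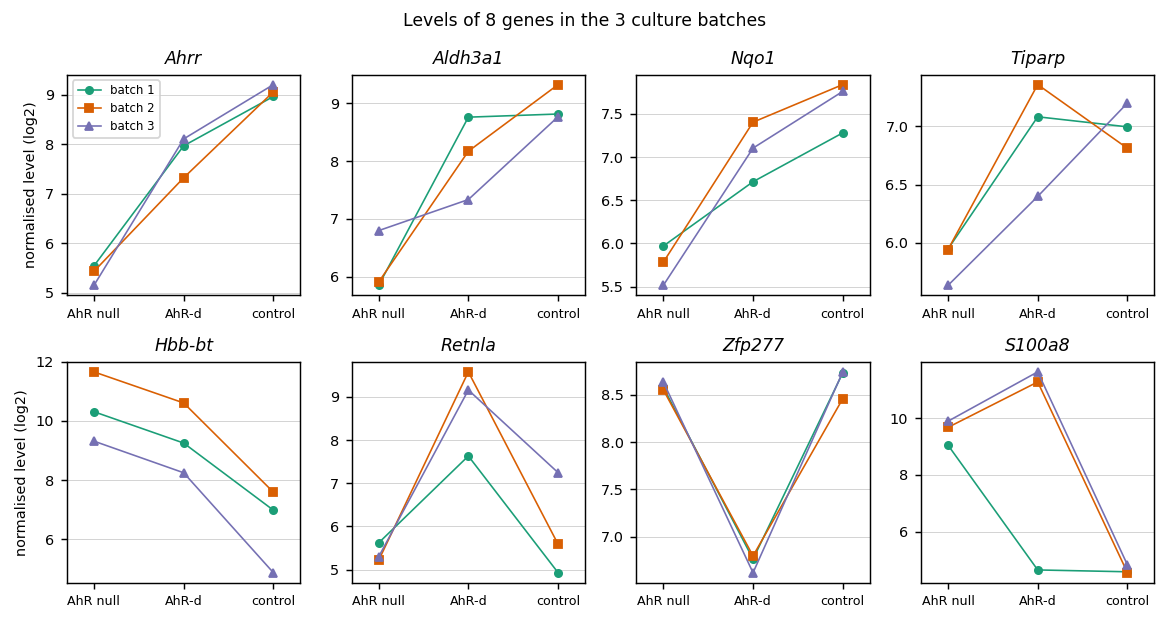
Normalised level (log2, vertical) of 8 genes in AhR null, AhR-d and control cultures, with a line for each of the 3 batches. Hbb-bt keeps parallel lines, Retnla peaks and Zfp277 dips in AhR-d, and the batch 1 AhR-d culture has 4.65 for S100a8, where batches 2 and 3 have 11.27 and 11.63.

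Transcripts of other blood cells were present in both genotypes. The summed neutrophil, monocyte, eosinophil and dendritic cell markers ranged more widely among AhR-d than among AhR null cultures, and the erythroid and megakaryocyte markers did not. In bulk RNA fewer cells of a type and less RNA per cell cannot be told apart. None of the 8 measured neutrophil markers passed in limma and none had an unadjusted p under 0.05, at a median of -0.01; without batch 1, 4 fell, and without batch 2, 3 rose. S100a8, a calprotectin subunit, had 9.05, 9.67 and 9.89 in AhR null, against 4.65, 11.27 and 11.63 in AhR-d and 4.58, 4.55 and 4.82 in control cultures (0.35, SE 0.88, adjusted p = 0.847). AhR-d replicate 1 was at the control level and the other AhR-d cultures above every AhR null culture; without batch 1 the difference was -1.67 (adjusted p = 0.000745). The summed level of these markers was 2050, 2240 and 2850 in AhR null, 972, 5800 and 5580 in AhR-d and 402, 940 and 324 in control cultures on the linear scale. Of the 21 markers on the array 7 or 8 were detected on AhR null arrays, 1 on AhR-d replicate 1 and 8 or 9 on the other AhR-d arrays. With batch 1 left out 652 features passed against 532, 327 lower and 325 higher.

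Of 9 measured monocyte and macrophage markers Apoe rose and Cx3cr1 fell (11.1% each, beside 3.4% and 3.95% of all features). The median of the 9 was -0.69, with 0.65, -1.98 and -0.22 in the 3 batches. Of the 9, 5 had an unadjusted p under 0.05, beside 1770 of all 7235 features. Apoe, an apolipoprotein, had 9.07, 9.41 and 8.74 in AhR null, against 6.99, 8.31 and 6.48 in AhR-d and 4.76, 6.45 and 4.93 in control cultures (1.81, SE 0.24, adjusted p = 0.00131), and the fractalkine receptor gene Cx3cr1 had 8.04, 8.23 and 9.05 in AhR null, against 9.42, 9.03 and 10.09 in AhR-d cultures (-1.07, SE 0.18, adjusted p = 0.00528). Cx3cr1 did not pass without the batch block (adjusted p = 0.112) or with the deposited values (0.32). Without batch 1, 1 marker rose and 4 markers fell. The marker sum was 3750, 4640 and 9080 in AhR null and 2800, 15700 and 13800 in AhR-d cultures; its part in these calls was not tested. Erythroid and megakaryocyte markers gave 4 rises and 1 fall among 13 (30.8% and 7.69%, beside 3.4% and 3.95% of all features). Without the batch block 0 rose and 0 fell in limma, beside 75 and 104 of all 7235 features. In that setting 7 had an unadjusted p under 0.05, beside 1338 of all features. Hbb-bt, an adult beta-globin, had 10.31, 11.66 and 9.32 in AhR null, against 9.25, 10.61 and 8.25 in AhR-d and 6.98, 7.59 and 4.86 in control cultures (1.06, SE 0.15, adjusted p = 0.0014). The groups overlapped, but the difference between AhR null and AhR-d was nearly equal in the 3 batches, and without the batch block it did not pass (adjusted p = 0.385). The embryonic globin gene Hbb-y had 10.02, 11.02 and 9.28 in AhR null, against 7.99, 9.49 and 7.22 in AhR-d and 4.67, 5.64 and 4.82 in control cultures (1.87, SE 0.18, adjusted p = 0.000169, and 0.105 without the batch block). Beta-globin genes are alike in sequence, the adult Hbb-bt and Hbb-b2 most of all, so signal among Hbb-y, Hbb-bt and Hbb-b2 may be shared. Vwf, a megakaryocyte and endothelial glycoprotein, was the fall, with 7.44, 5.74 and 8.85 in AhR null, against 10.39, 9.40 and 9.21 in AhR-d cultures (-2.33, SE 0.46, adjusted p = 0.0133), and did not pass without batch 1 (adjusted p = 0.063) or the batch block (0.083). Summed over the 13 genes the level was 11600, 16000 and 9440 in AhR null, 8900, 10900 and 7400 in AhR-d and 5840, 7820 and 6620 in control cultures, and its part in the globin result was not tested.

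The 2 measured eosinophil markers did not pass, with a summed level of 136.4 to 265.3 in AhR null and 49.84 to 1710 in AhR-d cultures. The 4 measured dendritic cell markers (369.5 to 532.6 in AhR null, 295.7 to 1022 in AhR-d) and the 2 stromal markers (618.9 to 1142 in AhR null, 1008 to 1129 in AhR-d) did not pass either, and no lymphocyte marker was measured. All 4 dendritic cell markers had an unadjusted p under 0.05, beside 1770 of all 7235 features, 3 of them lower and 1 higher. Their median was -1.20, with -0.34, -2.25 and -0.46 in the 3 batches. Without batch 1 or without batch 3, 2 of them fell, and without batch 2 none did. Basophil markers, which share genes with mast cells, gave Prss34 as a rise and Ifitm1 as a fall among 7 (14.3% each, beside 3.4% and 3.95% of all features).

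**Figure D5:**
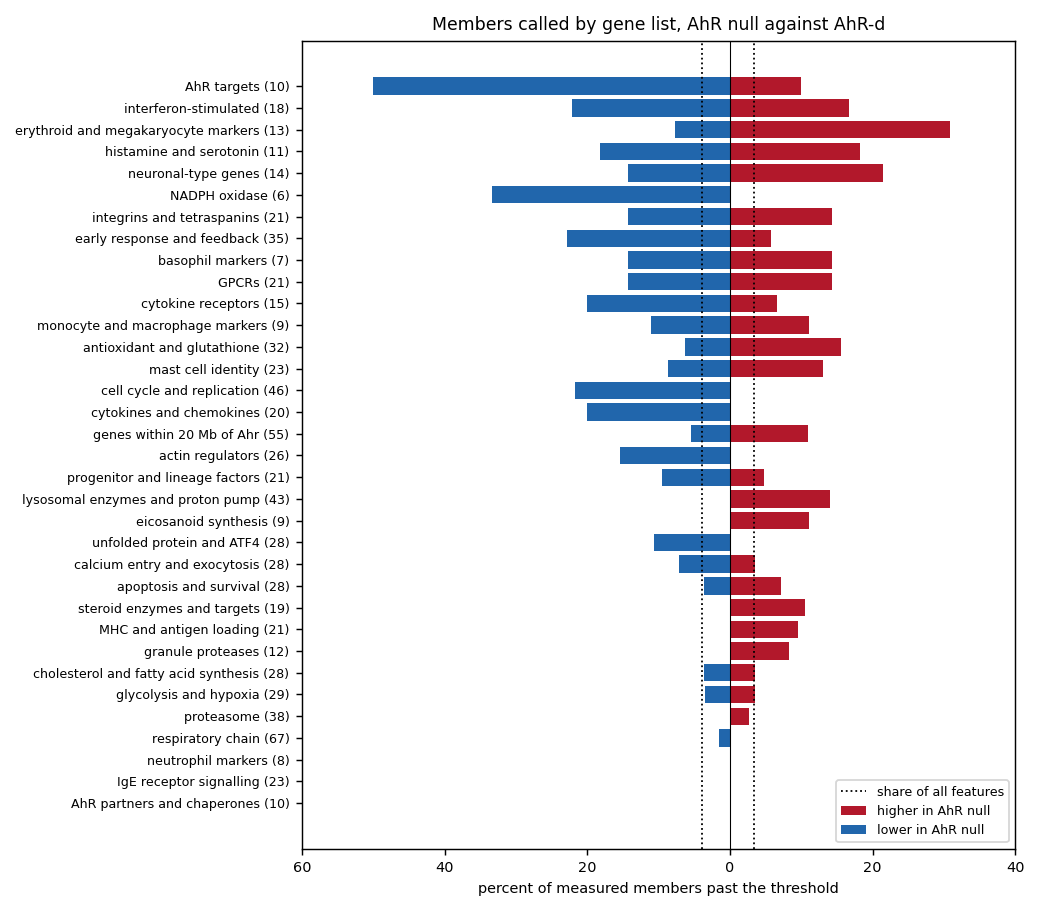
Percent of each list's measured members (number in brackets) that rose (right) or fell (left) in AhR null against AhR-d, for lists with at least 6 measured members; dotted lines are the shares of all features, 3.4% and 3.95%. AhR targets have the longest bar of falls, 50%, and erythroid and megakaryocyte markers the longest of rises, 30.8%.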

How the data were processed

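RNA from 9 mast cell cultures was hybridised to Illumina mouse Ref-8 bead arrays. The deposited table holds signal intensity for 25697 probes, not normalised between arrays, each with a detection p-value, per the file headers; the submitters' processing notes name GenomeStudio. A deposited series table holds log2 values that differ from log2 signal by 1 constant per array. Intensities were background-corrected with normexp, given an offset of 16 and quantile-normalised over the 9 arrays (neqc of limma 3.58.1 under R 4.3.3). Probes were kept with a detection p-value under 0.01 on at least 3 of the 6 arrays compared (9472 probes), and the brightest probe stood for each gene, giving 6666 named genes and 569 unnamed probes, which are counted and not named. The platform annotation names 23978 probes with 1 symbol, none with several, and 1719 with none.

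The 6 arrays were fitted with limma (lmFit, eBayes with an intensity trend) with batch as a block, leaving 2 residual degrees of freedom (11 in total after moderation), with a threshold of adjusted p under 0.05. Each genotype against control came from a blocked fit of all 9 arrays. The pairing comes from the labels' batch numbers: deviations from genotype means correlated at 0.108 to 0.346 between AhR null and AhR-d arrays of 1 batch, and at -0.298 to -0.00817 between arrays of different batches. P-values reflect only how these cultures vary. The fit was also tested on simulated data.

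Members and gene lists were chosen with earlier results of these data known. Named genes are the 12 largest called differences each way, up to 4 called members of each list by p, up to 6 called genes within 20 Mb of Ahr, and fixed genes (Ahr, Arnt, Ahrr, Cyp1a1, Cyp1b1, Tiparp, Nqo1, Aldh3a1, Nfkbia, Fcer1a, Hdc, Hmox1, Avil, Asphd2, Sucnr1, Sort1, S100a8, Hsd11b1, Il1r2, Retnla, Scin). Genes named beyond these (Serpinb2, Cpa3, Cma1, Rac1, Rac2, Cyba, Noxo1, Samhd1, Oasl2, Gbp3, Txnrd1 and the sex-linked genes) were chosen after their values were seen. Alternatives covered the block, the arrays fitted, each batch left out, scaling, background, offset, filter, variance model and probe choice. Transcripts of 1 receptor gene are not reported here.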

Additional observations from a re-analysis of the deposited data

How the results depend on the processing

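Against 532 calls (246 rises, 286 falls), fits with no replicate block called 179 (75 rises, 104 falls), all 9 arrays with no replicate block 184 (62 and 122), and no intensity trend 192 (87 and 105). All calls of the first 2 settings were among the 532. Leaving out each batch gave 334 to 652 calls, 145 to 325 rises and 189 to 327 falls. Falls numbered 61 with the deposited log2 values and 59 with median scaling. Calls between AhR-d and control, 114 here, were 28 with no replicate block and 47 to 118 with each batch left out, and those between AhR null and control, 1552 here, were 907 and 829 to 1031; these alternatives were chosen after seeing the data. Of 96 named genes that passed, 32 did so in all alternatives and 64 were lost in at least 1, among them 40 without the block. Direction turned for Arnt without batch 1 (0.09) or 2 (0.20), with the deposited values (0.0041) and with median scaling (0.016), and ran from -0.43 to 0.20 over the batches left out; for S100a8 without batch 1 (-1.67, against up to 1.40 without another batch), without background correction (-0.36) and with an offset of 50 (-0.0045); for Fcer1a without batch 3 (-0.054, against up to 0.26) and with median scaling on kept probes (-0.21); and for Hmox1 with the last of these (-0.10). The causes were not tested. Genes dimmer than the lowest detected signal, such as Ahr and Cyp1a1, cannot be compared.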
